A study of Rattus norvegicus with 12 samples.

Results

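The genes described here are those of the synaptic vesicle and of the machinery that releases and retrieves it, measured in the cortex of aged and young rats. They were chosen by symbol, with earlier results of these data known. A gene entered if the array annotation named it as a synapsin, synaptophysin, synaptogyrin, synaptotagmin, SV2 protein, vesicular glutamate transporter, VAMP, SNAP, syntaxin, syntaxin-binding protein, complexin, Munc13, RIM, Bassoon, Piccolo, Doc2, NSF, soluble NSF attachment protein or dynamin, and Snap91 was added as a coat adaptor. This rule gave 75 genes of 14218 named on the array (113 of 31099 probe sets, each a group of short probes that match part of a transcript). The study asked how sleep, maze learning and cortical gene expression change with age in male F344 rats that carried wireless telemetry implants and were trained in the Morris water maze. Cortical total RNA was hybridized to 12 Affymetrix RAE230 2.0 arrays, 1 per rat, from 6 aged rats (21 to 23 months by the labels) and 6 young rats (3 to 5 months). Both groups had the implant and the maze training, so no array shows cortex without them. The study's methods and the sample titles name parietal cortex, while the tissue field names frontal cortex. The region was not checked from the signals.

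Transmitter is stored in synaptic vesicles that dock at the active zone, a protein scaffold on the presynaptic membrane. A vesicle SNARE (VAMP2) zips together with target SNAREs (a syntaxin and SNAP-25), Munc13 and complexin guide that assembly, and synaptotagmin triggers fusion when calcium enters. NSF and its attachment proteins then take the SNARE complex apart, and dynamin with clathrin adaptors retrieves the membrane for another round. Relatives of the same SNARE families carry out membrane fusion in every cell, so the gene set holds both proteins particular to nerve terminals and general ones.

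Values are deposited signals on a linear scale, in arbitrary units. Where a gene had several probe sets, the one with the highest mean log2 signal stands for it, and signals are compared only within a probe set. A gene was tested if its log2 signal exceeded 4.3, a signal of 19.7, in at least 3 of the 12 rats. Of all probe sets, 84.3 to 87.1% exceeded this cutoff in aged rats and 83.3 to 85.9% in young rats. A signal above it therefore does not show that a transcript was detected. Of the 75 genes, 74 were tested among 13253, and 71 lay above this cutoff in all 12 rats. The exception was Unc13d, a Munc13 of immune cells, whose signal was 4.47 to 9.36 in aged rats and 2.92 to 5.19 in young rats, below the cutoff in every rat. Differences are aged minus young on the log2 scale, from limma, two-sided, with a 95% interval and with p-values adjusted over all 13253 genes by the Benjamini-Hochberg method. A gene counts as changed at an adjusted p under 0.05.

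Over the whole array, the median signal was 167.9 to 194.3 in aged rats and 161.6 to 171.9 in young rats. The precision is limited by having 6 arrays per age group. All 16 neuronal marker genes listed for this check lay above the cutoff in every rat. So did 11434 of the 13253 genes tested, so this does not identify the tissue. Aged rats 2 and 6 had the lowest mean correlation with the other arrays, 0.958 and 0.962 over log2 signals, so counts are also given without them. Sample codes form a lower series (4 aged and 3 young rats) and a higher series (2 aged and 3 young rats), and what the series stand for is not given in the sources used here.

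None of the 74 tested release genes changed with age at an adjusted p under 0.05, where 7 of all 13253 genes did (0.0528%, with 0.0453% higher and 0.00755% lower in aged rats). The smallest adjusted p was 0.371, for Syt3. At an unadjusted p up to 0.05, 6 members (8.11%) were found, against 9.11% of all genes, so the share was close to the background. Of these, Syt3, Syt2, Stx11 and Sv2c had higher mean signals in aged rats and Doc2b and Syn1 lower ones (5.41% higher and 2.7% lower, against 6.49% and 2.62% of all genes). The count was 12 without aged rat 2 (11.4% of all genes), 11 without aged rats 2 and 6 (9.35%), 3 without aged rat 4 (8.49%), young rat 5 (7.48%) or young rat 6 (8.49%), and 0 in the lower code series alone (4.81%). Syt3 alone had an unadjusted p up to 0.01 (2.52% of all genes). In no member were the aged and young rats fully separate, which occurred in 0.777% of all genes. Estimates lay above 0 for 36 members and below 0 for 38 (48.6% above, against 56.9% of all genes), with a median of -0.0036 beside 0.024 over all genes. With each array centred on its median the split was 20 above and 54 below (37.8% above over all genes), so the balance of signs depends on the scaling. Median centring lowers the estimate of every gene by the same amount, because the aged arrays had higher medians. The counts and medians given with it below all carry this shift and are not separate checks.

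These near-zero estimates were not all equally precise. The 95% interval of the age difference stayed within a 1.2-fold change in either direction for 29 members (39.2%, against 32.3% of all genes) and within 1.5-fold for 60 (81.1%, against 72.5%). All intervals given here and below are for the values as deposited and leave out the uncertainty of the scaling. They were not counted again with median centring, which lowers every estimate. From the estimate to either end of its interval was a median of 0.24 on the log2 scale (0.10 to 1.47). For 8 members this distance was over 0.5, and these, among them Sv2c, Slc17a6 and Doc2b, allow no firm statement on an absence of change.

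**Figure D1:**
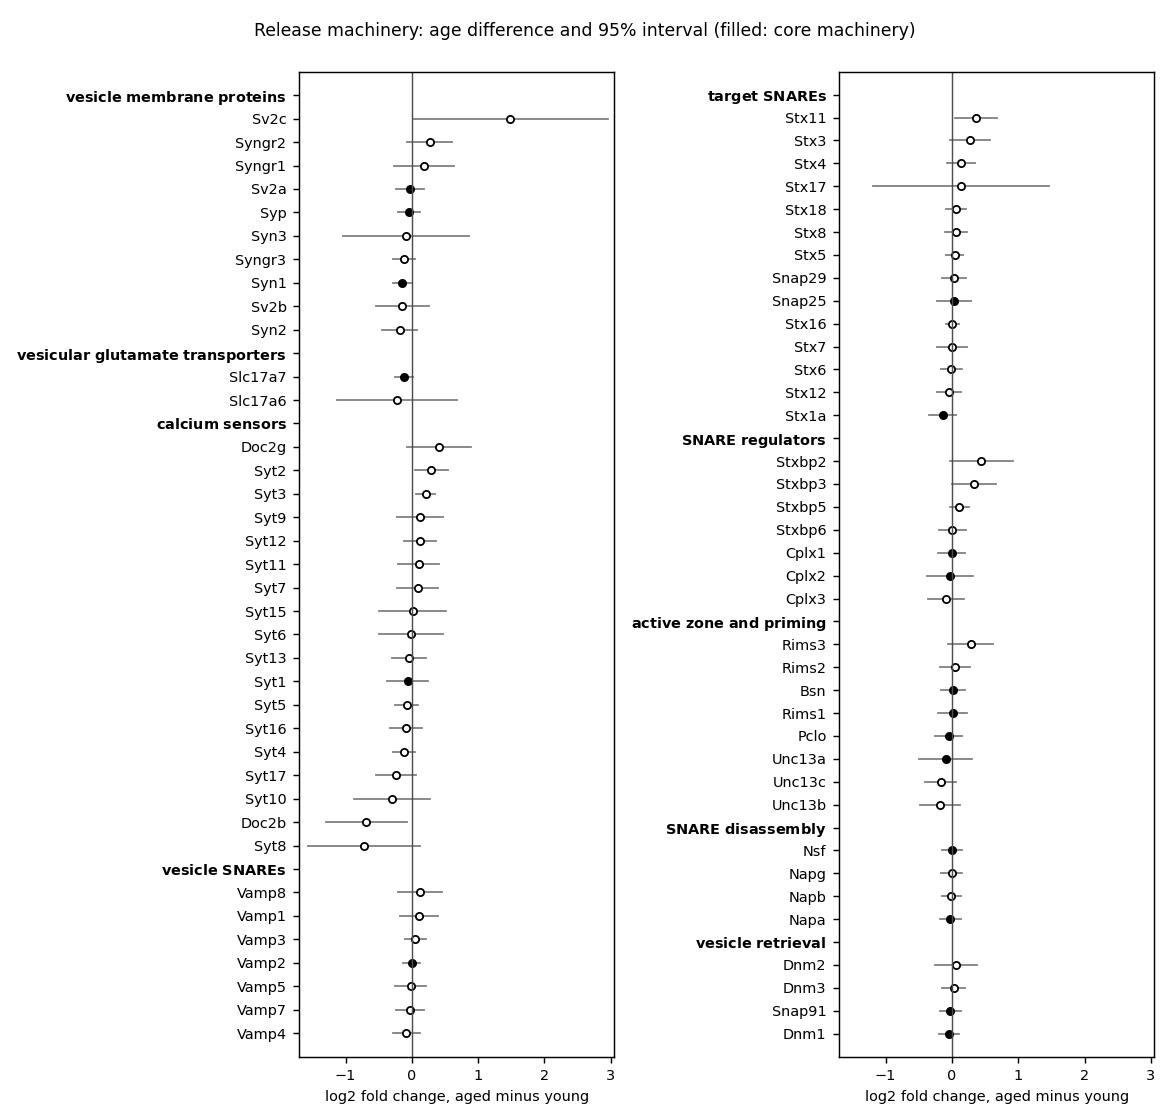
Age difference of the 74 tested members (log2 aged over young, points) with 95% intervals (lines), grouped by role, from limma with n = 6 aged and 6 young rats. All but 6 intervals cross 0, and the widest is that of Sv2c.

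The promoters of the members were searched for 1 well known element of neuronal genes, the cAMP response element in its palindromic form TGACGTCA, which reads the same on both strands and overlaps no other motif searched. Sequences are those of RefSeq (assembly GRCr8), taken from the 250 bases before the annotated start of each gene, and 60 of the 75 members had an entry. The element was found in 3 of the 60 (5.0%) and in 490 of 27457 genes with an entry (1.78%). Each of the 3 is printed 5′ to 3′ with the 30 bases on either side, with the element in capitals, because these are the members to which the element can be tied by its letters. It ends 52 bases before the start in Napa (chr1:85915346-85915413, plus strand), 183 before it in Syn1 (chrX:3725525-3725592, plus strand) and 64 before it in Vamp1 (chr4:159698793-159698860, plus strand).
Napa: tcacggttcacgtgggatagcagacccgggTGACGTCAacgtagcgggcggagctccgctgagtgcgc
Syn1: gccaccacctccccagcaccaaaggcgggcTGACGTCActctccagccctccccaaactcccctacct
Vamp1: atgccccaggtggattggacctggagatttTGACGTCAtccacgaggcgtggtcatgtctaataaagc
The 3 genes did not share a direction in aged cortex, with differences of -0.02 for Napa, -0.14 for Syn1 and 0.10 for Vamp1. A match is a description of the sequence and not a measured site.

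Among proteins of the vesicle membrane, 10 genes were tested, and 3 had estimates above 0 and 7 below. Their median was -0.07 as deposited, -0.05 under quantile normalization and -0.14 under median centring. Syn1 encodes synapsin I, which tethers vesicles to one another and to the cytoskeleton. Its signal had a lowest, median and highest value of 5198, 5833 and 6455 in aged rats, against 5823, 6513 and 6780 in young rats. The aged rats lay lower on the whole, with overlap: aged rats 2, 3 and 4 exceeded the lowest young rat. The means were 5810.0 ± 446 in aged rats and 6414 ± 343 in young rats (SD, n = 6 each), a difference of -0.14 (95% interval -0.28 to -0.01, adjusted p = 0.527 with limma), or 0.905-fold. Its difference was below 0 in all 28 alternative settings, with an unadjusted p up to 0.05 in 14 of them. The further probe set of Syn1 had a difference of -0.07 (-0.25 to 0.11, unadjusted p = 0.419 with limma).

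Syp encodes synaptophysin, the classical marker of synaptic vesicles. It measured 4309.9, 4812 and 5954 (lowest, median, highest) in aged rats, against 4872, 4997 and 5508 in young rats, with the young rats inside the range of the aged ones. The difference was -0.04 (-0.21 to 0.12). Sv2a, a vesicle glycoprotein and the target of an antiepileptic drug, averaged 2751 ± 382 in aged rats and 2785 ± 219.5 in young rats (SD, n = 6 each), a difference of -0.03 (-0.24 to 0.19). For both genes the means differed by less than the spread between rats. The relatives Syn2, Syngr3 and Sv2b had differences of -0.18, -0.12 and -0.15, each with an interval that crosses 0.

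Sv2c, an SV2 protein best known from the basal ganglia, was close to the cutoff. Its signal was 24.3, 32.8 and 49.4 (lowest, median, highest) in aged rats, against 2.18, 21.9 and 32.8 in young rats. All 6 aged rats but only 3 young rats were above the cutoff, and young rats 2, 5 and 6 were below it. The difference of 1.49 (0.02 to 2.95, adjusted p = 0.540 with limma) therefore rests on signals of 3 young rats below the cutoff. Markers of striatum, a tissue where Sv2c is abundant, had 4 of 6 estimates above 0 (median 0.13), with mean log2 levels per rat of -0.14 to 0.27 in aged rats and -0.16 to 0.09 in young rats relative to the young mean, and their part in the Sv2c values was not tested. Syngr2, a synaptogyrin found in most tissues, averaged 202 ± 42.1 in aged rats and 166 ± 26.8 in young rats (SD, n = 6 each), a difference of 0.27 (-0.07 to 0.61).

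The vesicular glutamate transporters load glutamate into vesicles, Slc17a7 (VGLUT1) in most cortical neurons and Slc17a6 (VGLUT2) in thalamic and other subcortical ones. Slc17a7 had signals of 3893, 4077 and 4962 (lowest, median, highest) in aged rats, against 4379, 4579 and 4774 in young rats. The aged rats lay below all the young ones except aged rat 2, which was the highest of all 12. The means were 4215 ± 404 in aged rats and 4556 ± 146 in young rats (SD, n = 6 each), with a difference of -0.12 (-0.26 to 0.02, adjusted p = 0.617 with limma). Without aged rat 2 the unadjusted p was 0.00647 and the adjusted p 0.257, and with the mean of its probe sets the unadjusted p was 0.409. Its further probe set had a difference of -0.06 (-0.38 to 0.27).

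Slc17a6 varied more between rats of a group than Slc17a7 did. Aged rats had signals of 432, 137, 158, 335, 126 and 118 (rats 1 to 6), and young rats 473, 135, 302, 288, 147 and 145. Both groups held rats several times as high as others, and their ranges overlapped almost wholly. The difference was -0.22 with an interval of -1.13 to 0.68, too wide to bound the change within 1.5-fold. The mean log2 level of the myelin markers, relative to the young mean, was 0.87, -0.31, 0.14, 0.80, 0.13 and 0.36 in the same aged rats and 0.47, 0.07, -0.15, 0.30, -0.27 and -0.42 in the young rats. Aged rats 1 and 4 and young rats 1 and 4 were high in both measures, young rat 3 in Slc17a6 only, and aged rat 6 had the lowest Slc17a6 signal of all 12 rats with a myelin level above 0. Thalamic markers had levels of 0.05 to 0.29 in aged rats and -0.06 to 0.09 in young rats (3 of 5 estimates above 0, median 0.34), and the part of tissue makeup in the transporter values was not tested. In bulk cortex, fewer cells of a type and less RNA per cell cannot be told apart.

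**Figure D2:**
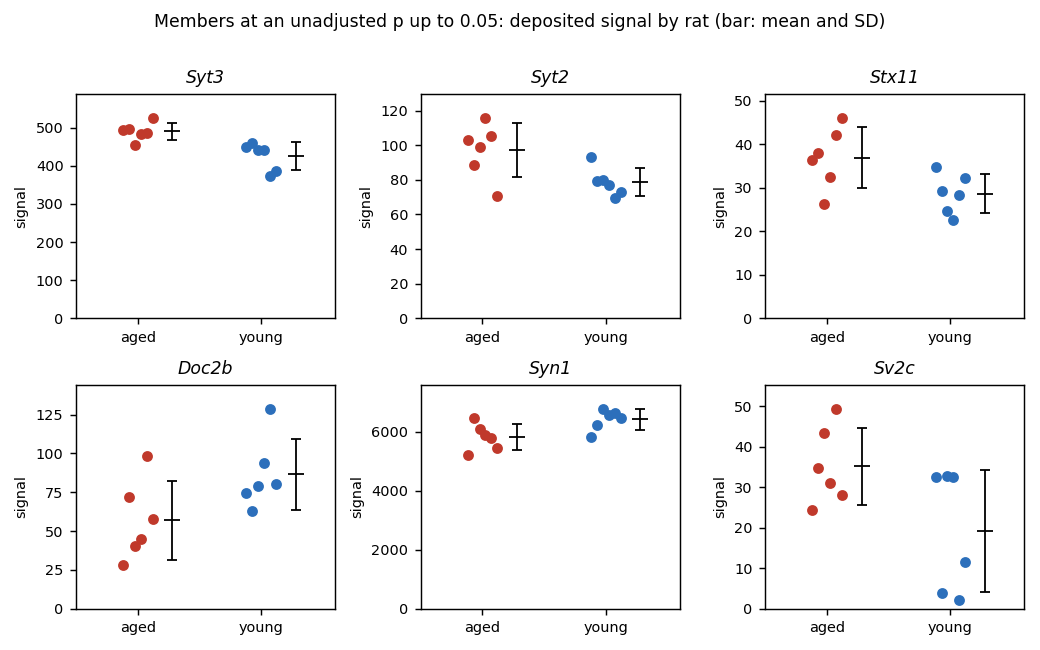
Signal per rat (points, linear scale, arbitrary units) of the 6 members with an unadjusted p up to 0.05, aged left of young, with the mean and SD of each group (n = 6 rats). In every panel the ranges of aged and young rats overlap, and in that of Sv2c young rats 2, 5 and 6 lie far below the rest.

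The synaptotagmins and Doc2 proteins carry paired C2 domains, through which some of them, such as Syt1, bind calcium and couple its entry to fusion, while others bind little or none. Of 18 tested genes, 8 had estimates above 0 and 10 below (median -0.03, -0.07 under quantile normalization and -0.10 under median centring). Syt1, the sensor of fast release in cortex, had signals of 3040.4, 5098 and 5627 (lowest, median, highest) in aged rats, against 4426, 4959 and 5622 in young rats. The other 5 aged rats lay between 5016 and 5627, above the median of the young rats, and only aged rat 6 was below the young range. The difference was -0.06 (-0.37 to 0.25).

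Syt3, a synaptotagmin with high calcium affinity that acts in receptor trafficking and in slower forms of release, had the smallest p of the members. It measured 454, 491 and 525 (lowest, median, highest) in aged rats, against 373, 441 and 459 in young rats. Aged rat 3 was the lowest of its group, below young rat 2, and the other 5 aged rats were above every young rat. The means were 490.2 ± 23.0 in aged rats and 425 ± 36.2 in young rats (SD, n = 6 each), with a difference of 0.21 (0.07 to 0.35, adjusted p = 0.371 with limma), or 1.16-fold. The gene has a further probe set, which averaged 209 ± 39.6 in aged rats and 149.6 ± 31.8 in young rats (SD, n = 6 each), with a difference of 0.49. Both probe sets thus had the same sign. The difference was above 0 in all 28 alternatives and at an unadjusted p up to 0.05 in 26, with an adjusted p of at least 0.310 throughout.

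Syt2 is the fast sensor of inhibitory interneurons and of hindbrain synapses. Its signals were 70.7, 101 and 116 (lowest, median, highest) in aged rats, against 69.3, 78.4 and 93.1 in young rats. Aged rat 6 was as low as the lowest young rats, aged rat 2 was inside their range and the other 4 aged rats were above all of them. The difference was 0.29 (0.04 to 0.54, adjusted p = 0.486 with limma). With aged rats 2 and 6 left out the adjusted p was 0.188, and with quantile normalization the unadjusted p was 0.311.

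Doc2b encodes a soluble calcium sensor of spontaneous and asynchronous release. It measured 28.4, 51.4 and 98.6 (lowest, median, highest) in aged rats, against 63.1, 79.8 and 129 in young rats. Aged rats 1, 3, 4 and 6 were below every young rat, while aged rats 2 and 5 were within the young range. In every rat this signal was low, below the median signal over the whole array. The difference was -0.68 (-1.29 to -0.08, adjusted p = 0.494 with limma), and it was below 0 in all 28 alternatives. In its relative Doc2g the estimate had the opposite sign (0.41, unadjusted p = 0.0873). The remaining synaptotagmins had differences of -0.72 (Syt8, a gene of low signal with an unadjusted p of 0.0858) to 0.12 (Syt9 and Syt12).

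**Figure D3:**
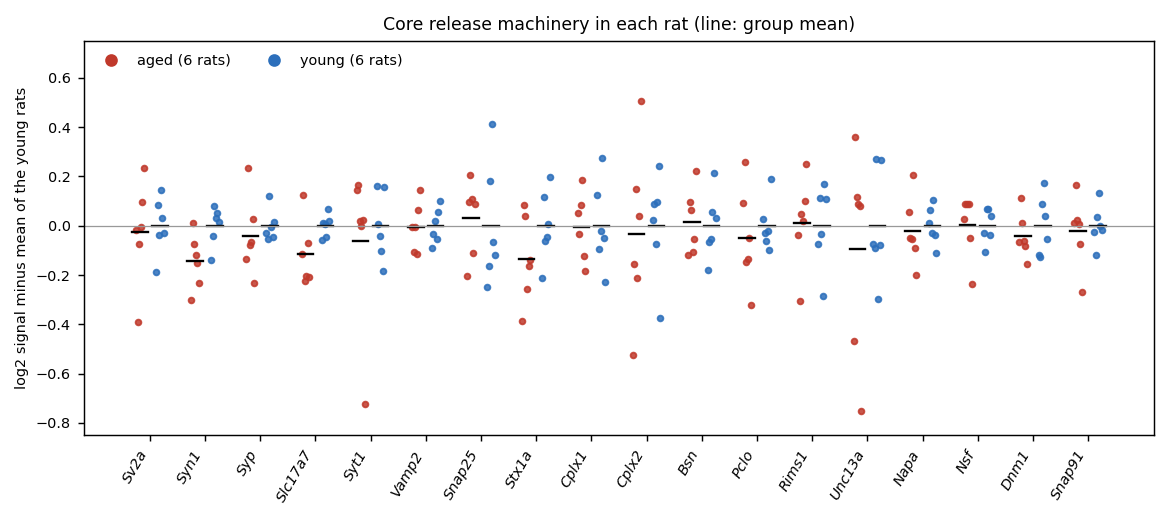
Log2 signal of the 18 core release genes in each rat, relative to the mean of the young rats, aged points left of young points (n = 6 rats each, lines are group means). Nearly all points lie within 0.5 of the young mean in both groups, and the lowest are Unc13a and Syt1 in aged rat 6.

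Vamp2, the vesicle SNARE of cortical release, was among the most tightly measured members. Its signals were 4735, 5099.6 and 5658 (lowest, median, highest) in aged rats, against 4818, 5097 and 5499.97 in young rats, so the medians were nearly equal. The means were 5118 ± 352 in aged rats and 5129.6 ± 256 in young rats (SD, n = 6 each), and the interval of the difference ran from -0.13 to 0.12. Vamp1, the form of fast-firing and motor neurons, and Vamp8, which serves endosomes and secretory cells, had differences of 0.10 (-0.18 to 0.39) and 0.12 (-0.21 to 0.46). Vamp4 of the trans-Golgi network had -0.08 (-0.29 to 0.12). None of the 7 vesicle SNAREs had an unadjusted p up to 0.05, and all 7 intervals stayed within 1.5-fold. Their median was -0.00 as deposited, 0.02 under quantile normalization and -0.08 under median centring.

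Target SNAREs sit on the membrane with which a vesicle fuses. Snap25 measured 15338, 18829 and 20406 (lowest, median, highest) in aged rats, against 14866, 16595 and 23545 in young rats. The young rats spread more widely than the aged ones and enclosed them. The difference was 0.03 (-0.23 to 0.29). Stx1a, the syntaxin partner of Snap25, measured 2725, 3213 and 3781 (lowest, median, highest) in aged rats and 3077, 3515 and 4092 in young rats. The aged rats of Stx1a lay lower with a wide overlap, and the difference was -0.14 (-0.34 to 0.07, adjusted p = 0.692 with limma).

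The other syntaxins act at further membranes of the cell. Of 14 target SNAREs 11 had estimates above 0 (median 0.04). The count was 10 under quantile normalization (median 0.03) and 4 with median centring (median -0.03). Of 12 syntaxins 9 had estimates above 0 (median 0.05), 8 under quantile normalization (median 0.03) and 4 with median centring (median -0.02). Stx11, a syntaxin of immune and other cells that lacks a membrane anchor, had signals of 26.2, 37.2 and 46.0 (lowest, median, highest) in aged rats, against 22.6, 28.7 and 34.7 in young rats. Both groups were only modestly above the cutoff of 19.7, and 4 of 6 aged rats exceeded the highest young rat. The difference was 0.36 (0.04 to 0.67, adjusted p = 0.490 with limma). Stx3, the syntaxin of apical membranes and ribbon synapses, averaged 199 ± 44.5 in aged rats and 162 ± 19.3 in young rats (SD, n = 6 each), a difference of 0.28 (-0.02 to 0.58). Stx4, a general plasma membrane syntaxin, had 0.14 (-0.07 to 0.34).

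Because immune cells are among those that use Stx11, marker levels are set beside it. Of 10 microglial markers 9 had estimates above 0 (median 0.25), and the mean log2 level of the list relative to the young mean was -0.09 to 0.82 in aged rats and -0.23 to 0.19 in young rats. Blood markers had 5 of 5 estimates above 0 (median 0.50), with levels of 0.57 to 1.24 in aged rats and -0.21 to 0.38 in young rats. The 2 genes with the largest estimates in this list were S100a8 (2.23), which was above the cutoff in 6 aged rats and 0 young rats, and S100a9 (1.5998), beside 0.23 to 0.50 for Hbb, Ptprc and Alas2. The microglial level and the Stx11 signal were both highest in aged rat 6, and the part of these cells in Stx11 was not tested.

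SNARE regulators steer assembly. Cplx1 and Cplx2, complexins that clamp and promote fusion, had differences of -0.00 (-0.21 to 0.20) and -0.03 (-0.38 to 0.31). For Cplx1 the means were 8214 ± 783 in aged rats and 8255 ± 1032 in young rats (SD, n = 6 each). Of the 7 regulators 4 had estimates above 0 (median 0.01), 5 under quantile normalization (median 0.04) and 3 with median centring (median -0.06). Stxbp3, which regulates the glucose transporter compartment among others, had signals of 968, 1282 and 1725 (lowest, median, highest) in aged rats, against 821, 1099 and 1222 in young rats, with a difference of 0.33 (-0.00 to 0.66, unadjusted p = 0.0504 with limma). Stxbp2, a syntaxin-binding protein of epithelial and immune cells, had 0.44 (-0.03 to 0.92), and Stxbp5 (tomosyn), which competes with VAMP2 for syntaxin, 0.11 (-0.04 to 0.26). Aged and young rats overlapped in each of these genes.

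The 8 active zone and priming genes had 4 estimates above 0 and 4 below, and the same under quantile normalization. With median centring 1 was above and 7 below. Bsn and Pclo encode the giant scaffold proteins Bassoon and Piccolo. Bsn measured 5781, 6296 and 7319 (lowest, median, highest) in aged rats, against 5545, 6227 and 7287 in young rats, almost the same range, with a difference of 0.02 (-0.16 to 0.19). Pclo had -0.05 (-0.25 to 0.15). Rims1, which links vesicles to calcium channels, averaged 1193 ± 146 in aged rats and 1182 ± 133 in young rats (SD, n = 6 each), a difference of 0.01 (-0.21 to 0.23).

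Munc13 proteins open syntaxin for SNARE assembly. Unc13a, the main form in cortex, measured 107, 190.2 and 230.4 (lowest, median, highest) in aged rats, against 146, 170.4 and 217 in young rats, and its difference of -0.10 had the widest interval of the core (-0.50 to 0.31). Unc13b and Unc13c had -0.18 (-0.48 to 0.12) and -0.17 (-0.40 to 0.07). Rims3, a short RIM that modulates calcium channels, averaged 136 ± 14.9 in aged rats and 114 ± 27.3 in young rats (SD, n = 6 each), a difference of 0.28 (-0.05 to 0.62).

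The disassembly and retrieval genes had estimates close to 0, with medians of -0.01 and 0.00. The medians were 0.01 and -0.01 under quantile normalization and -0.08 and -0.07 with median centring. Nsf, the ATPase that separates SNAREs, measured 6389, 7826 and 7998 (lowest, median, highest) in aged rats, against 6993, 7545 and 7882 in young rats. Its means were 7549.9 ± 636 in aged rats and 7528 ± 359 in young rats (SD, n = 6 each), and the difference was 0.00 (-0.14 to 0.15). The attachment proteins Napa, Napb and Napg had differences of -0.02, -0.01 and -0.00, and all 4 intervals of this group stayed within 1.2-fold. Dnm1, the neuronal dynamin that cuts vesicles from the membrane, averaged 10457 ± 677 in aged rats and 10768 ± 909 in young rats (SD, n = 6 each), a difference of -0.04 (-0.19 to 0.11). Snap91 (AP180), which recruits clathrin, had -0.02 (-0.18 to 0.13), and Dnm2, the dynamin of all cells, 0.06 (-0.25 to 0.37).

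The core of the machinery, a list of which 18 genes used at most cortical terminals were measured, had 4 estimates above 0 and 14 below (median -0.03, range -0.14 to 0.03). None passed the test, and Syn1 alone had an unadjusted p up to 0.05. The 95% intervals of all 18 stayed within 1.5-fold, running from 0.708 to 1.24, and 12 stayed within 1.2-fold. These limits hold for the values as deposited and leave out the uncertainty of the scaling. With median centring 0 estimates lay above 0 and 18 below (median -0.10), and with quantile normalization 8 above and 10 below (median -0.02). In the lower code series alone it was 0.01 and in the higher series -0.15, so the sign of the core median was not the same within the series. The mean log2 level of the core per rat, relative to the young mean, was -0.12 to 0.04 in aged rats and -0.06 to 0.04 in young rats. The highest aged rat was rat 2 and the lowest were rats 6 and 1.

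Members listed as general, with uses outside nerve terminals, gave 16 estimates above 0 and 7 below over 23 tested genes. Their median was 0.04, with 0.03 under quantile normalization (17 above, 6 below) and 0.08 in the lower code series alone. It was -0.03 with median centring and -0.03 in the higher code series alone, which holds 2 aged rats. Not all of these genes serve every cell: Stxbp2 (0.44) and Stx11 (0.36), described above with immune cells, had the largest estimates. The list shares Nsf and Napa with the core. The other 51 members gave 20 above and 31 below (median -0.03, -0.02 under quantile normalization and -0.10 with median centring). Their mean log2 levels per rat, relative to the young mean, were -0.03 to 0.22 in aged rats and -0.10 to 0.07 in young rats for the general genes, and -0.08 to 0.04 in aged rats and -0.06 to 0.05 in young rats for the others.

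**Figure D4:**
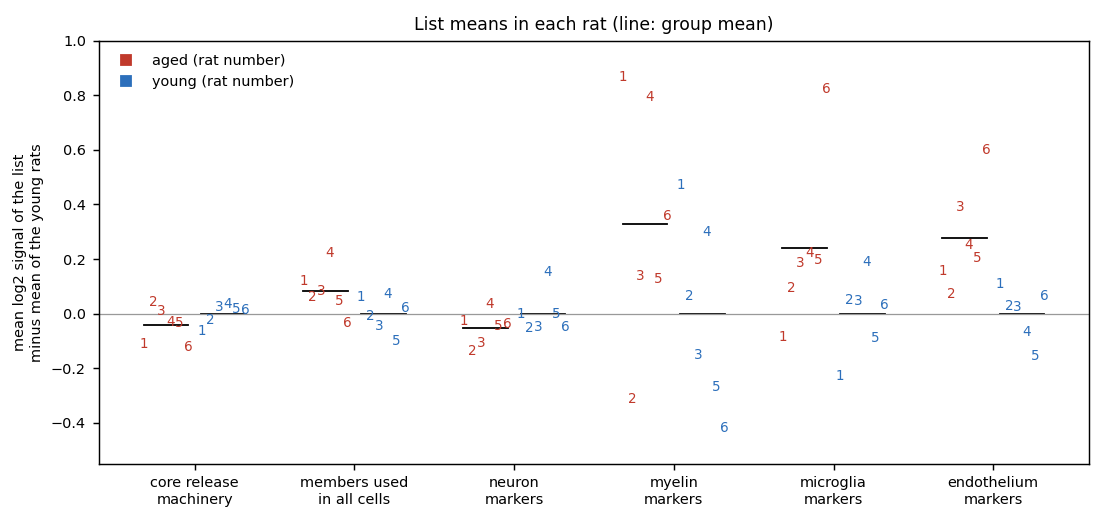
Mean log2 level of gene lists in each rat, relative to the mean of the young rats, aged left of young (n = 6 rats each, numbers name the rat). The lines are group means, and the core, general member and neuronal lists lie close to 0 in both groups, while the myelin, microglia and endothelium lists spread more widely.

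Members with several probe sets allow a check within the gene. Of 30 such members, 17 had probe sets whose estimates all shared a sign and 13 did not. Of 111 tested probe sets, 8 (7.21%) had an unadjusted p up to 0.05, against 7.8% of all tested probe sets, and none passed the adjusted threshold (0.0248% of all). These 8 include, chosen for mention after their values were seen, further probe sets of Syt4 and Vamp5. The one for Syt4, a synaptotagmin that does not bind calcium in its first C2 domain, averaged 3246 ± 515 in aged rats and 3884 ± 237 in young rats (SD, n = 6 each), a difference of -0.27, against -0.13 for its main probe set. The one for Vamp5 was above the cutoff in 2 aged and 5 young rats and had -1.496, against -0.02 for its main probe set. The 3 probe sets of Stxbp5 differed in sign (0.11, -0.10 and -0.14). What the probe sets of a gene match apart from its symbol was not examined.

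**Figure D5:**
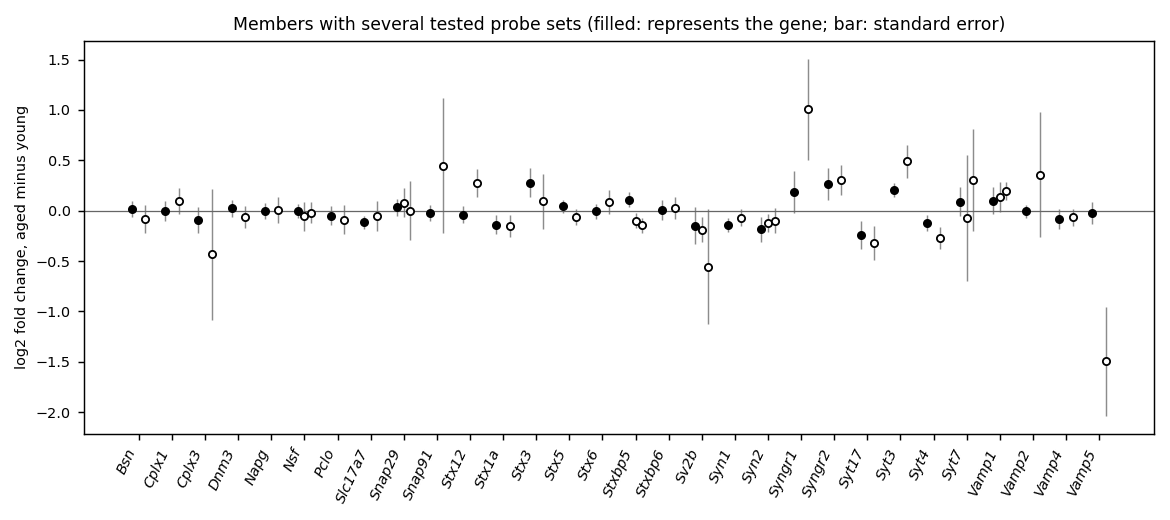
Age difference (log2 aged over young) of every tested probe set of the members that have more than 1, with n = 6 aged and 6 young rats. Bars are standard errors, filled points are the probe sets that represent the gene and open points the further ones, and in 13 of 30 genes they lie on both sides of 0.

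Genes around the machinery were counted in the same way. Of 26 tested genes of the clathrin coat and endocytosis, 11 had estimates above 0 and 15 below (median -0.01, or -0.08 with median centring), and 0 passed the adjusted threshold with limma. Bin1, an amphiphysin that bends membrane, was the 1 gene of 26 with an unadjusted p up to 0.05, against 9.11% of all genes. It averaged 2132 ± 99.3 in aged rats and 1868 ± 105 in young rats (SD, n = 6 each, difference 0.19, adjusted p = 0.316 with limma). Its lowest aged rat (2024) was above its highest young rat (1989), and it was the 1 gene of this list whose groups did not overlap (0.777% of all genes). Of 38 further release and active zone genes, 21 had estimates above 0 and 17 below, and again 0 passed. Their median was 0.02 as deposited, 0.02 under quantile normalization and -0.05 with median centring. Rab3b, a vesicle GTPase, averaged 914 ± 123.2 in aged rats and 1137 ± 171 in young rats (SD, n = 6 each), and Cask, an active zone adaptor, 882 ± 57.5 in aged rats and 977 ± 75.7 in young rats (SD, n = 6 each), with differences of -0.31 and -0.15. They were the 2 genes of 38 at an unadjusted p up to 0.05, against 9.11% of all genes.

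The neuronal markers had 3 estimates above 0 and 13 below (median -0.06), beside 11 above and 0 below for myelin (median 0.26) and 7 and 0 for endothelium (median 0.23). Their mean log2 levels per rat, relative to the young mean, were -0.14 to 0.03 in aged rats and -0.05 to 0.15 in young rats for neurons, and -0.31 to 0.87 in aged rats and -0.42 to 0.47 in young rats for myelin. The core of the release machinery, at a median of -0.03, lay between the neuronal list and all genes. No neuronal, myelin or endothelial marker was called at an adjusted p under 0.05, and the part of cell makeup in the estimates of the members was not tested.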

How the data were processed

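Total RNA of 12 rats was measured on 1 array each. The authors deposited a linear signal intensity per probe set, scaled so that the mean of each array, trimmed by 2% at each end, is 500.1. The methods name gcRMA, and the submitters' notes name MAS5, GCRMA and R 2.7.1 without order. The design assumed log2 values. For its array scaling factors the paper names a target intensity of 500. The deposited values being linear, they were log2-transformed and not normalized again. The methods' cutoff of 4.3, which the paper chose from a histogram of its gcRMA signals, was kept on that scale, where it may not have the same meaning. Probe sets with several symbols (436) or with none (9831) were not used for genes, which left 20832 of 31099. Symbols were updated by gene ID through the RefSeq table of rat genes (20764 probe sets found), which changed no member.

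Each gene is its probe set with the highest mean log2 signal. Aged and young rats were compared with limma 3.58.1 (lmFit, eBayes) in R 4.3.3. Plots were made in matplotlib 3.10.9 under Python 3.11.15. The fit was tested on simulated data. Named are the core list, the 3 members with the smallest p in each role and members with an unadjusted p up to 0.05, and others were named after their values were seen. The members and lists were chosen with earlier results of these data known. Nothing says more of the arrays than 1 per rat. The p-values therefore measure the spread between rats together with that of RNA preparation, labelling and hybridization, which cannot be separated here. Alternatives were other scalings, filters, offsets (signal + 16), probe set choices, variance models, the methods' t-test on the same values, blocks and left-out rats.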

Additional observations from a re-analysis of the deposited data

Results flagged for a closer look

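In 78 groups of 6 rats (39 named members in each age group), 4 held a rat that lay far from the other 5 relative to the range of the group, and chance gives about 1 in 20 groups. In aged rats, Syt1 of rat 6 had a signal of 3040.4, against 5016 to 5627 in the other aged rats. In young rats, Unc13c of rat 3 had 416, against 275 to 305 in the other young rats. Unc13b of young rat 1 had 203, against 274 to 308 in the others, and Stx4 of the same rat had 882, against 684 to 749.5.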

How the results depend on the processing

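Under 28 alternatives, 12 of which leave out 1 rat, no member reached an adjusted p under 0.05, nor did any of 1089 estimates of the 39 named members, of which 19 changed sign somewhere. The 6 members at an unadjusted p up to 0.05 became 0 in the lower code series alone and 11 without aged rats 2 and 6, and 3 to 12 with 1 rat left out (3 on leaving out aged rat 4 or young rats 5 or 6, and 12 on leaving out aged rat 2, where 11.4% of all genes met that p). Median centring gave 20 members above 0, a median of -0.0742 and a mean difference of -0.0495, against 36, -0.0036 and 0.0211 as deposited, and 1 rat left out gave 33 to 45. Groups that do not overlap numbered 20 in the higher code series alone, with 2 aged rats, 3 without aged rats 2 and 6, and 0 to 1 with 1 rat left out. Fewer rats separate more easily by construction. The share over all genes was not counted in these settings, so the numbers are no result about the members. The shift under median centring is the same for every gene. What moved the counts with rats left out or within a code series, including the smaller number of rats, was not tested. Aged and young rats that share a subject number are different animals. Their deviations correlated at -0.04 to 0.16, under 0.1 for subjects 2 and 5. Every aged rat but number 2 correlated best with the young rat of its own number, a hint from the data only. The best match of each young rat was not taken. With the subject number as a replicate block, 7 members had an unadjusted p up to 0.05 (11.3% of all genes) and 0 were called. With 6 rats a group, age differences under about 0.24 on the log2 scale, the median reach of the 95% intervals, could not be told from 0 for many members.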

Other observations

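The spread between rats was examined after the values were seen. On the log2 scale the SD among aged rats exceeded that among young rats in 14 of 18 core genes (77.8%), in 48 of 74 members (64.9%) and in 61.1% of all genes tested. Without aged rats 2 and 6 the counts were 9 of 18 (50%), 29 of 74 (39.2%) and 43.7%. These rats were left out because their arrays correlated least with the others, no young rat was left out, and removing extreme rats lowers an SD by construction. Aged rat 2 was the highest aged rat in 10 of 18 core genes (25.5% of all genes) and aged rat 6 the lowest in 9 of 18 (21.4% of all genes). The median ratio of aged to young SD over the core was 1.71 with all rats and 0.970 without both.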
